A study of Mus musculus with 6 samples.

Results

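Nucleoporins and nuclear transport receptors were examined as a gene family in sorted cells of the mouse Atoh1 lineage. The members were chosen by gene symbol: every probe set of the array with a single gene symbol was taken if that symbol was Nup, Kpna, Kpnb, Ipo, Xpo or Tnpo followed by a number, or Ndc1, Tpr, Aaas, Rae1, Sec13, Seh1l, Pom121 or Cse1l. This gave 125 of 45101 probe sets and 48 of 18193 named genes, and Tpr was not analysed here. No signal entered the rule, but the family was proposed with earlier results of the same early against late comparison known. The members' counts and the p-values of single members are therefore given as a description of these arrays, and no statement about the family as a whole rests on them.

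All 6 samples were EGFP-positive cells sorted at E14.5 from the rhombomere 1 and isthmus region of Swiss Webster embryos that carried Atoh1-CreER and the EGFP reporter RCE. The dam was given tamoxifen by gavage (4 mg per 35 g) at E10.5 for the early group and at E13.5 for the late group, with 3 arrays in each group. Cre activity depends here on the Atoh1 transgene, so EGFP marks cells that expressed it around the time of dosing together with their descendants. The interval between dosing and sorting also differs between the groups and cannot be told apart from the day of labelling. The labels do not say how many embryos or litters made up a sample, so p-values measure only the spread among these arrays, and that spread may be technical. The measure was the signal of an Affymetrix mouse expression array, with a hybridisation of its own for every sample, so 3 arrays a group set the limit of precision.

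The nuclear pore complex is the channel through which proteins and RNAs cross the nuclear envelope. Its scaffold consists of outer rings built from the Y complex and an inner ring, held in the membrane by transmembrane nucleoporins. Nucleoporins with repeats of phenylalanine and glycine (FG) fill the channel, filaments reach into the cytoplasm and a basket reaches into the nucleus. Importins, transportins and exportins carry cargo through the FG repeats, with the small GTPase Ran setting the direction of transport. In dividing cells the pores are taken apart and rebuilt with the nuclear envelope, several nucleoporins act at kinetochores, and the number of pores grows before mitosis.

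The promoters of Nup37, Kpna2 and Nup107 are shown because these 3 members had the lowest adjusted p among the genes' brightest probe sets, a choice made after their values were seen. RefSeq windows (GRCm38.p6) were matched for 38 of the 48 members by gene number, 45 windows in all, and the 250 bases before the annotated start were searched on both strands. The motifs were CCAAT, the site of the factor NF-Y; TTTGAA, the cell cycle genes homology region (CHR) found in promoters of many mitotic genes; and TTTCCCGC or TTTGGCGC, E2F-type sites. Capitals mark matches on either strand, each sequence runs 5′ to 3′ on the strand of its gene, and no match overlapped another in the 3 windows.
Nup37: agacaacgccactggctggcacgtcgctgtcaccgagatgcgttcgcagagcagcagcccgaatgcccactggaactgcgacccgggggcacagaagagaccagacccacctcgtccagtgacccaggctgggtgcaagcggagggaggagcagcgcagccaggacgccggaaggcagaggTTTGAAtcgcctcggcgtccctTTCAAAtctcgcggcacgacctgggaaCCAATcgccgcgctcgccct
Kpna2: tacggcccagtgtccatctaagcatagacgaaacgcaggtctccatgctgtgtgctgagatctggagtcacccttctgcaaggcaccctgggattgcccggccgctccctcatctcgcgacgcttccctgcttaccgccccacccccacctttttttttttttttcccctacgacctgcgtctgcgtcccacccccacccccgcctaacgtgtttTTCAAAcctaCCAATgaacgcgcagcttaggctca
Nup107: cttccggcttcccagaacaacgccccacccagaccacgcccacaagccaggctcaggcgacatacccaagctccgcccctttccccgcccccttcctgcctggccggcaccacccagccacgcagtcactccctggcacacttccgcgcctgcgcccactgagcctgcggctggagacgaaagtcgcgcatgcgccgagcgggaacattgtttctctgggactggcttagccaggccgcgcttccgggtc
The first lies at chr10:88146742-88146991 on the plus strand, the second at chr11:106999526-106999775 on the minus strand and the third at chr10:117792706-117792955 on the minus strand. Nup37 held 2 CHR matches and 1 CCAAT, the CHR matches starting 69 and 47 bases and the CCAAT 20 bases before the start. A second RefSeq start of Nup37 lies downstream, and its window holds the same matches. Kpna2 held 1 CHR match and 1 CCAAT, starting 35 and 25 bases before the start. Nup107 held none of the searched motifs in this window.

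Among all member windows, 20 of 45 held CCAAT (44.4%, against 33.8% of all 32851 windows of that length in the table). The CHR letters stood in 11 member windows (24.4% against 16.0%) and an E2F-type site in 1, that of Nup210 (2.22% against 1.30%). CCAAT and CHR occurred together in 6 windows of 5 members (13.3% of windows against 5.55%), which were Nup37, Kpna2, Nup98, Kpna7 and Tnpo2. Of these, Nup37, Kpna2 and Nup98 had passed with a higher late signal, while Tnpo2 did not pass the test and Kpna7 was too dim to be tested. By gene, CCAAT was found in 8 of 16 and 9 of 21 genes with a higher late signal and of the other tested members, and CHR in 4 of 16 and 5 of 21. Over all genes with a window, CCAAT was found in 10133 of 27025 and CHR in 4934 of 27025. These shares are descriptions of letters in a fixed window and were not tested.

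Most members had a higher late than early signal. The brightest probe set of a gene, by mean log2 signal over the 6 arrays, stood for the gene, and 46 of the 48 genes were tested, all of them above the array median on all 6 arrays. Kpna7, an importin alpha of oocytes and early embryos, and Nup210l, a relative of Nup210 known from testis, lay at or below the median on every array (24.5 ± 23.6 against 28.8 ± 13.1 units and 9.36 ± 4.64 against 7.15 ± 2.32 units, SD, n = 3, early against late) and were not tested. Of the 46, 17 were higher in the late group at a limma adjusted p under 0.05, and 0 were higher in the early group. Over all 11064 genes tested the same rule called 14% with a higher late and 16.2% with a higher early signal. At an unadjusted p under 0.05 the members' counts were 28 and 2, beside 2375 and 2458 of all 11064 genes. Every difference is given as early minus late, so that negative values mean a higher late signal. The members' median log2 difference was -0.56, with 40 of 46 below 0. Over all 11064 tested genes the median was -0.03, with 5686 below 0. The members' differences ran from -1.65 to 0.63, and their median absolute log2 difference was 0.59. Over all 11064 tested genes the median absolute difference was 0.57. In 32 members every late array lay above every early array (26.4% of all tested genes), and in 5 every early array lay above every late array (26% of all tested genes). In such sorted populations, fewer cells of a type and less RNA per cell cannot be told apart.

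**Figure D1:**
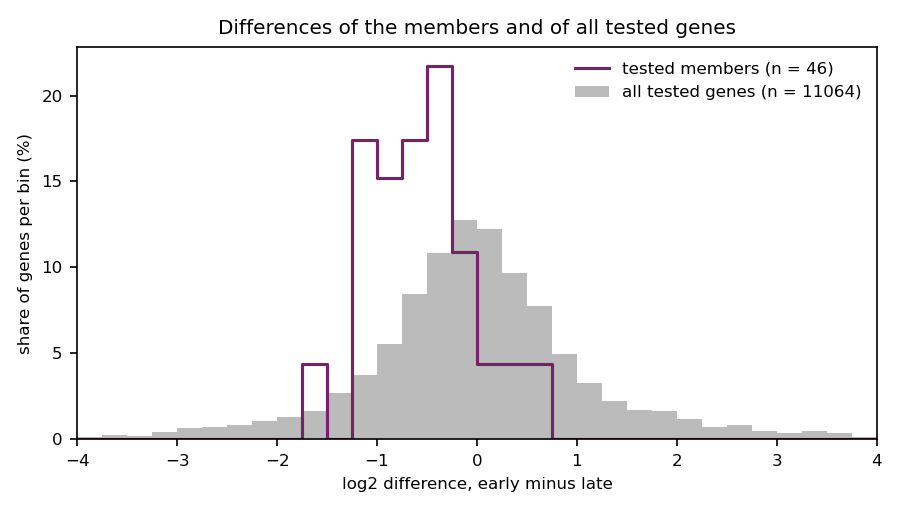
Share of genes (y axis, %) per bin of the log2 difference, early minus late (x axis, bins of 0.25 log2 units), for the 46 tested members (line) and all 11064 tested genes (bars). The members lie between -1.65 and 0.63, mostly left of 0, while the bars are centred near -0.03 and reach further in both directions. The bars hold far more genes, so the widths cannot be compared.

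The number of called members depended on the arrays used. Without late replicate 1, 2 or 3, 5 members were still called in each case, Nup107, Nup37, Kpna2, Nup50 and Nup210. Over all genes tested the share called higher in the late group fell as well, from 14% to 6.03%, 6.43% and 5.92%. Without early replicates 1, 2 and 3, 14, 18 and 12 members were called higher in the late group, beside 1533, 1543 and 1407 of all genes. Early arrays spread more: the median SD of the tested members was 0.272 log2 units over the early arrays and 0.105 over the late arrays. Over all tested probe sets it was 0.386 and 0.212, so the wider early spread was not particular to the members. The members' median deviation from their own group mean was lowest on early replicate 2 (-0.0492 log2 units) and highest on late replicate 1 (0.0488).

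Markers of several cell states moved with the same comparison. All 19 tested markers of cycling cells were higher in the late group, with summed signals of 16242 to 18998 units on early arrays and 94544 to 103087 on late arrays and a median log2 difference of -2.71. Of 7 tested granule cell precursor markers, 6 were higher in the late group, Atoh1 among them, with sums of 23550.3 to 30390.2 units on early arrays and 61526 to 66678 on late arrays. Of 12 markers of postmitotic neurons, 7 were higher in the early group and 0 in the late group (limma; an unadjusted p under 0.05 was reached by 10 and 1), with sums of 121397 to 125743 units on early arrays and 56662 to 63827 on late arrays. Markers of cells outside the lineage were dimmer: the summed signals of 9 microglial markers were 595 to 1372 units on early arrays and 381 to 517 on late arrays, those of 7 endothelial markers 457 to 2657 units on early arrays and 338 to 1583 on late arrays, and those of 8 pericyte and meningeal markers 787 to 2753 units on early arrays and 361 to 1145 on late arrays. Markers of erythroid cells summed to 101 to 4751 units on early arrays and 299 to 356 on late arrays, with early replicate 3 the highest through Hbb-y. The summed markers of radial glia and astrocytes were 8752 to 10254 units on early arrays and 4512 to 6943 on late arrays, those of the oligodendrocyte lineage 3571 to 3944 units on early arrays and 1535 to 2043 on late arrays and those of the GABAergic cerebellar lineage 2238 to 3549 units on early arrays and 828 to 1133 on late arrays. Calls in these lists went both ways: 1 marker of radial glia and astrocytes was higher late (Slc1a3) and 2 higher early (Fabp7, which carries most of the sum, and Aldh1l1, tested only through the early group). In the oligodendrocyte lineage 1 was higher late (Pdgfra) and 2 higher early (Olig1 and Olig2), and in the GABAergic lineage 0 and 3. Of the microglial, endothelial, pericyte and meningeal, and erythroid markers tested, 1 of 2, 0 of 3, 0 of 4 and 0 of 1 were higher early, and none higher late. No marker is listed at 0, but 5 of the microglial markers, 2 of the endothelial, 2 of the pericyte and meningeal and 3 of 4 erythroid markers lay above the array median on no array. RNA quality was read from the array's Actb controls, where the signal at the 3′ end was 17.4 to 26.2 times that at the 5′ end on early arrays and 12.9 to 16.1 times on late arrays. The Gapdh controls gave 10.6 to 13.2 on early and 9.47 to 12.1 on late arrays, and these ranges overlapped. The part of these differences in the members' values was not tested.

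**Figure D2:**
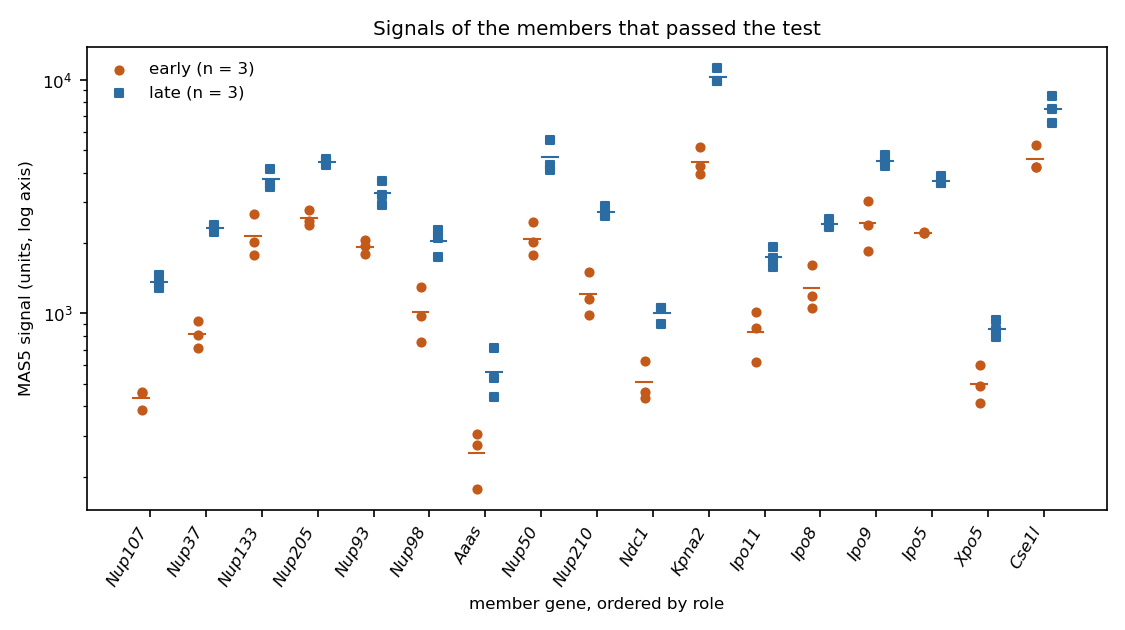
MAS5 signal in units (log axis) of the 17 members that passed the test, ordered by role. Circles are the 3 early and squares the 3 late arrays, and short lines are group means. For each gene the squares all lie above the circles.

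The Y complex is the outer scaffold, and its members also bind kinetochores in mitosis. It held Nup107 and Nup37, which had the largest differences among the members' brightest probe sets. Of its 8 tested genes, 3 passed with a higher late signal and 5 did not, with a median of -0.78 and all 8 below 0. The median of the transmembrane nucleoporins lay further below 0, and that of the nuclear basket was about equal, with fewer tested genes in each. Nup107, a core stalk subunit, stood at 458, 463 and 385 units in the early arrays and at 1463, 1337 and 1279 units in the late arrays. The groups were far apart, and the lowest late array exceeded the highest early one. The difference was -1.65 ± 0.18 on the log2 scale (SE), or 3.13-fold (limma adjusted p = 0.00243). Nup37, a peripheral subunit carried by Nup160, stood at 713, 929 and 808 units in the early arrays and at 2236, 2359 and 2389 units in the late arrays. Its late arrays lay close together and all above the early ones, a difference of -1.52 ± 0.18 on the log2 scale or 2.87-fold (limma adjusted p = 0.00314). Nup133, at the far end of the stalk, stood at 2022, 1775 and 2664 units in the early arrays and at 4166, 3573 and 3489 units in the late arrays. These groups also did not overlap, but early replicate 3 reached toward the late arrays, and the difference was -0.81 ± 0.22 on the log2 scale or 1.76-fold (limma adjusted p = 0.0392). Its other tested probe sets gave -0.92 and -0.74 and did not pass. The Nup133 call was lost with adjusted p = 0.127, 0.103 and 0.103 without late replicates 1, 2 and 3 and 0.0772 and 0.0689 without early replicates 1 and 2.

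Nup43, another peripheral subunit, averaged 634 ± 289.7 units early and 1207 ± 169 units late (SD, n = 3), a 2.02-fold difference that did not pass (limma adjusted p = 0.0748). Early replicate 2 was the brightest early array, and without it the adjusted p was 0.0121. The other tested Nup43 probe set also lay below 0 and did not pass (limma adjusted p = 0.113). Seh1l, which the Y complex shares with the GATOR complex of nutrient signalling, averaged 2060.4 ± 487 units early and 3389.9 ± 141 units late on its brightest probe set (limma adjusted p = 0.0509, and 0.0169 without early replicate 2). All 6 tested Seh1l probe sets lay below 0, from -1.87 to -0.61, and 3 of them passed. Of these 3, the dimmest (74.0 against 115 units) lay above the array median on late arrays alone, so it was tested only through the group where it is high. Nup85, which anchors Seh1l, gave -0.48 (1574 ± 234 against 2185 ± 23.9 units, limma adjusted p = 0.107) on its brightest probe set and -1.40 (827 ± 278 against 2118 ± 152 units, limma adjusted p = 0.0133) on the other. The direction was shared, and the dimmer probe set alone passed. Sec13, which also forms the outer coat of COPII vesicles, averaged 1090.3 ± 115 against 1452 ± 238 units, and Nup160, the partner of Nup37, 907 ± 346 against 1035 ± 84.9 units, early against late (limma adjusted p = 0.187 and 0.556). The Nup160 arrays overlapped between the groups, with early replicate 2 the brightest of all 6.

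In the inner ring, which lines the wall of the channel, 2 of 4 tested genes were higher in the late group (median -0.65). Nup205, a large scaffold protein, stood at 2385, 2782 and 2491 units in the early arrays and at 4566, 4308 and 4507 units in the late arrays. The groups did not overlap, and the difference was -0.81 ± 0.17 on the log2 scale or 1.75-fold (limma adjusted p = 0.0173). Nup93, which links the scaffold to the channel proteins, stood at 1794, 2065 and 1940.2 units in the early arrays and at 2908, 3198 and 3686 units in the late arrays. Late replicate 3 was the brightest array, the groups were apart, and the difference was -0.75 ± 0.18 on the log2 scale or 1.68-fold (limma adjusted p = 0.0287). Leaving out arrays ended these calls: for Nup205 the adjusted p was 0.0665, 0.0605 and 0.0743 without late replicates 1, 2 and 3, and for Nup93 it was 0.0629, 0.0901 and 0.115 without late replicates 1, 2 and 3 and 0.0564 and 0.0513 without early replicates 1 and 3. Nup188, a paralogue of Nup205, averaged 258 ± 47.5 units early and 379 ± 66.7 units late (limma adjusted p = 0.134). Nup155, which contacts the membrane, gave -0.16 (1354 ± 393 against 1471 ± 192 units, limma adjusted p = 0.709) on its brightest probe set, with overlapping groups, and -0.96 (315 ± 49.9 against 609 ± 71.0 units, limma adjusted p = 0.0188) on the other.

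Of 3 tested FG nucleoporins of the central channel, 1 was higher in the late group. Nup98, a mobile FG nucleoporin that also binds chromatin, stood at 1301, 758 and 979 units in the early arrays and at 2101, 2283 and 1746 units in the late arrays. The groups did not overlap, with a difference of -1.04 ± 0.25 on the log2 scale or 2.06-fold (limma adjusted p = 0.0302), and its other tested probe set also passed, with -1.52 (241 ± 116 against 647 ± 74.7 units, limma adjusted p = 0.0239). On the brighter probe set the adjusted p was 0.0954, 0.101 and 0.0672 without late replicates 1, 2 and 3 and 0.0605 without early replicate 3. Nup62, the hub of the channel's FG mesh, gave -0.46 (6887 ± 218 against 9489 ± 545 units, limma adjusted p = 0.0839) on its brightest probe set, while 2 of its other 3 tested probe sets passed with -0.71 and -0.93 (limma adjusted p = 0.0402 and 0.0108). Nup54, which sits in the same subcomplex as Nup62, was the only nucleoporin whose early arrays all lay above its late ones. It averaged 2723 ± 391 units early and 2002 ± 54.1 units late, a difference of 0.43 ± 0.18 on the log2 scale that did not pass (limma adjusted p = 0.135). All 4 tested Nup54 probe sets lay above 0, from 0.34 to 0.62, and none passed (lowest limma adjusted p = 0.0536). The difference between Nup54 and Nup62 was not tested.

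On the cytoplasmic side 1 of 4 tested genes was higher in the late group. Aaas, which encodes the nucleoporin ALADIN, stood at 305, 178 and 275 units in the early arrays and at 439, 527 and 711 units in the late arrays. It was among the dimmest members, without overlap of the groups, and differed by -1.15 ± 0.29 on the log2 scale or 2.23-fold (limma adjusted p = 0.034). Leaving out single arrays, the adjusted p of Aaas was 0.058, 0.091 and 0.112 without late replicates 1, 2 and 3 and 0.0543 and 0.0538 without early replicates 2 and 3. Nup88, which holds Nup214 at the cytoplasmic face, averaged 2244 ± 588 units early and 3297 ± 233 units late (limma adjusted p = 0.117, and 0.0312 without early replicate 2). Nup214, a binding platform of export complexes, averaged 1075 ± 491 against 1294 ± 86.6 units, and Rae1, an mRNA export factor that binds Nup98, 1269.5 ± 299 against 1345 ± 41.8 units, early against late (limma adjusted p = 0.506 and 0.748). Both overlapped between the groups, and early replicate 2 was the lowest array for Nup214 and the highest for Rae1.

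On their brightest probe sets both tested nuclear basket genes were higher on every late array, and 1 passed. Nup50, which helps release cargo from importin alpha, stood at 2457, 2029.9 and 1787 units in the early arrays and at 5513, 4321 and 4108 units in the late arrays. Late replicate 1 was the highest, and the difference of -1.15 ± 0.22 on the log2 scale or 2.22-fold (limma adjusted p = 0.0127) was kept without any 1 array. The other 2 tested Nup50 probe sets gave -0.32 and -0.98, with overlapping groups, and did not pass. Nup153, which anchors the basket and binds lamins, averaged 4929.7 ± 189.8 units early and 6558 ± 53.4 units late on its brightest probe set (limma adjusted p = 0.106). Its other tested probe sets gave -0.82 and -0.05 and did not pass (limma adjusted p = 0.176 and 0.870). The groups overlapped on the latter (1698 ± 202 against 1755 ± 180 units).

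Of the transmembrane nucleoporins, 2 of 3 tested were higher in the late group. Nup210, a membrane glycoprotein whose level is known to vary between cell types, stood at 1152, 986 and 1508 units in the early arrays and at 2889, 2617 and 2639.8 units in the late arrays. The groups were well apart, by -1.18 ± 0.21 on the log2 scale or 2.27-fold (limma adjusted p = 0.0115), and the call was kept without any 1 array. Ndc1, needed for inserting new pores into the envelope, stood at 628, 459.9 and 436 units in the early arrays and at 1058, 1058 and 905 units in the late arrays. Late replicates 1 and 2 were equally bright, the groups did not overlap, and the difference was -1.0 ± 0.21 on the log2 scale or 2-fold (limma adjusted p = 0.0192). The Ndc1 call ended when a late array was left out, at an adjusted p of 0.0707, 0.071 and 0.0549 without late replicates 1, 2 and 3. A dim second Ndc1 probe set, which did not pass, gave -1.42 (145 ± 153 against 253 ± 1.16 units, limma adjusted p = 0.234). Pom121, an early organiser of pore assembly, averaged 4428 ± 519 units early and 6474 ± 197 units late (limma adjusted p = 0.0645), with -1.02 on its other probe set (adjusted p = 0.0508).

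**Figure D3:**
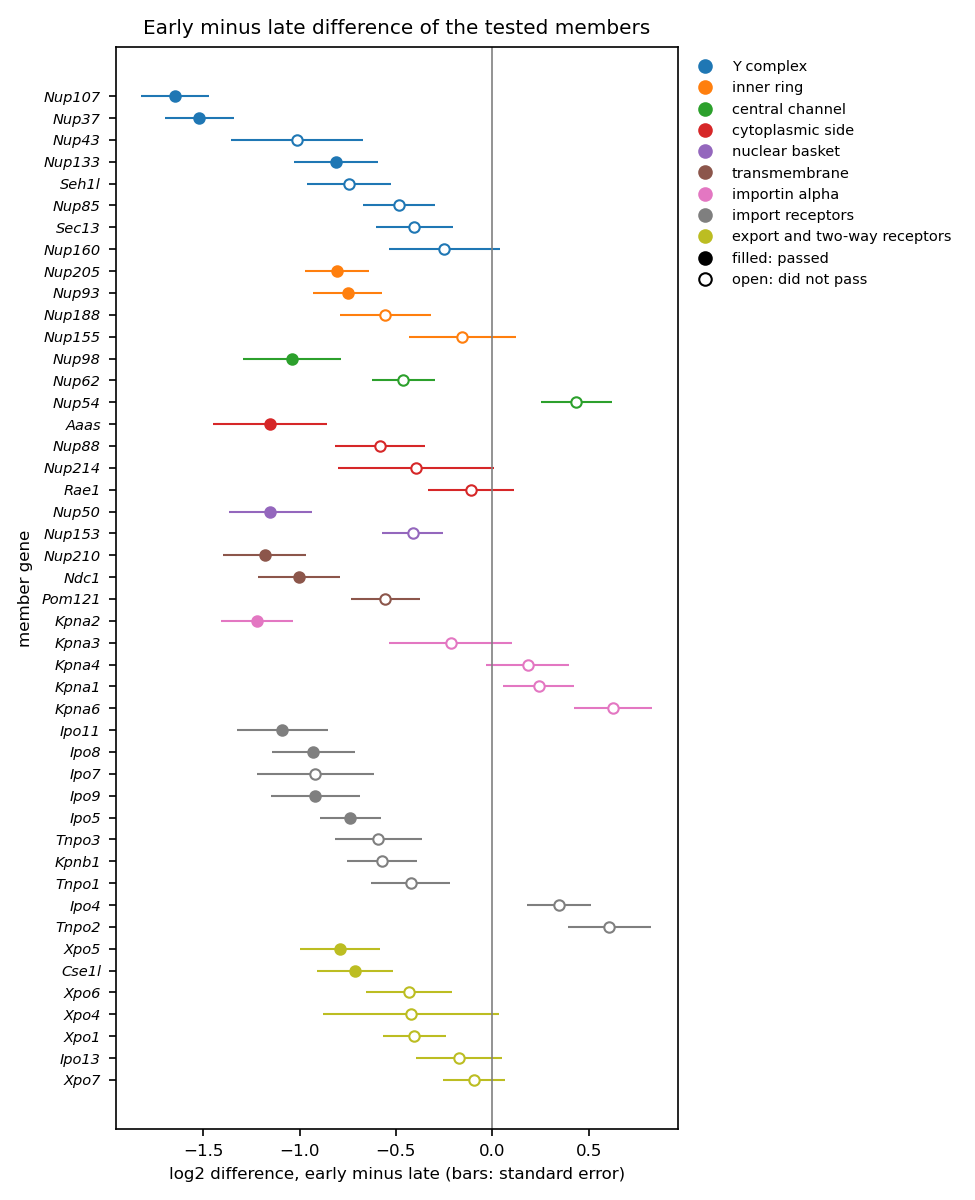
Log2 difference, early minus late (x axis), of the 46 tested members (y axis), coloured by role, with limma's standard error as bars. Filled circles passed an adjusted p of 0.05 and open circles did not. Nup107 at -1.65 and Kpna6 at 0.63 mark the ends of the range, and no filled circle lies right of 0.

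The importin alpha adaptors, which recognise classical nuclear localisation signals and hand their cargo to importin beta, passed the test in 1 of 5 cases, with a higher late signal. The median of the 5 was 0.18. Kpna2, the importin alpha known for high expression in proliferating and pluripotent cells, stood at 5158, 4259.7 and 3932 units in the early arrays and at 11214, 9892 and 9843 units in the late arrays. Even the dimmest late array was brighter than any early one, a difference of -1.22 ± 0.19 on the log2 scale or 2.33-fold (limma adjusted p = 0.00681), and the call was kept without any 1 array. Kpna3 and Kpna4, which form a subfamily of their own, averaged 2259.7 ± 793 against 2520.2 ± 369 units and 5132 ± 1070.2 against 4471 ± 414 units, early against late, with overlapping groups (limma adjusted p = 0.652 and 0.568). A dim Kpna3 probe set did pass, with -1.16 (106 ± 32.0 against 231 ± 30.4 units, limma adjusted p = 0.0279), while its other 2 did not. Kpna1, an importin alpha that is known to rise as embryonic stem cells turn into neural cells, averaged 1652 ± 213 units early and 1394 ± 100.2 units late (limma adjusted p = 0.374). Its 4 tested probe sets ran from -0.84 to 0.42, and none passed. Kpna6, a close relative of Kpna1, had the highest value toward the early group of all members, 1241 ± 186 units early and 801 ± 88.6 units late, a difference of 0.63 ± 0.20 on the log2 scale or 1.54-fold. It did not pass (limma adjusted p = 0.0662), but it did without early replicate 2 (adjusted p = 0.0403). The difference between the Kpna2 and Kpna6 responses was not tested.

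**Figure D4:**
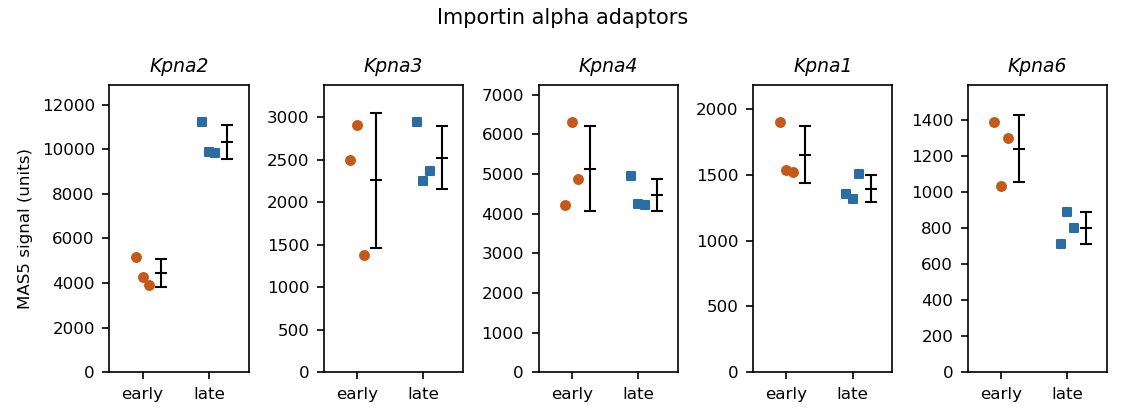
MAS5 signal in units (linear axes from 0, scaled for each gene) of the 5 tested importin alpha genes. Circles are the 3 early and squares the 3 late arrays, and black bars give the mean and SD (n = 3). Kpna2 is higher in every late array, Kpna1 and Kpna6 are brighter in every early array without passing the test, and Kpna3 and Kpna4 overlap.

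Among 10 tested import receptors of the importin beta family, 4 were higher in the late group and 6 did not pass (median -0.67). Ipo11, an import receptor of ubiquitin-conjugating enzymes, stood at 862, 622 and 1017 units in the early arrays and at 1923, 1727 and 1582 units in the late arrays. The groups were apart, with a difference of -1.09 ± 0.24 on the log2 scale or 2.13-fold (limma adjusted p = 0.0209). Ipo8, which carries Argonaute and Smad proteins, stood at 1618, 1053 and 1190.4 units in the early arrays and at 2365, 2344 and 2527 units in the late arrays. Its late arrays were tight and all above the early ones, -0.93 ± 0.22 on the log2 scale or 1.9-fold (limma adjusted p = 0.0256), whereas a dim second Ipo8 probe set gave 0.48 (107 ± 61.8 against 70.6 ± 33.7 units, limma adjusted p = 0.618). Ipo9, an importer of histones and actin, stood at 2397, 1858 and 3039.7 units in the early arrays and at 4772, 4279 and 4472 units in the late arrays. Early replicate 3 was the brightest early array, the groups did not overlap, and the difference was -0.92 ± 0.23 on the log2 scale or 1.89-fold (limma adjusted p = 0.0318). A second Ipo9 probe set passed with -0.84 (adjusted p = 0.0377), while the remaining probe set did not, with -0.19 (adjusted p = 0.523). Ipo5, an importer of ribosomal proteins and histones, stood at 2235, 2208 and 2215 units in the early arrays and at 3881, 3616 and 3614 units in the late arrays. Its early arrays were nearly identical, the late ones were all higher, and the difference was -0.74 ± 0.16 on the log2 scale or 1.67-fold (limma adjusted p = 0.0199), and both tested probe sets passed. None of these 4 calls held without a late array. The adjusted p of Ipo11 was 0.0762, 0.0685 and 0.0608 without late replicates 1, 2 and 3. That of Ipo5 was 0.077, 0.0706 and 0.077 without late replicates 1, 2 and 3. Ipo8 had 0.079, 0.0777 and 0.095 without late replicates 1, 2 and 3 and 0.0549 without early replicate 3, and Ipo9 had 0.103, 0.0856 and 0.101 without late replicates 1, 2 and 3 and 0.0599 without early replicate 1.

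Kpnb1, importin beta itself, gave -0.57 (3715 ± 473 against 5503 ± 276 units, limma adjusted p = 0.0621) on its brightest probe set, which passed without early replicate 1 (adjusted p = 0.0499). Its other tested probe sets both passed, with -0.78 and -1.05 (limma adjusted p = 0.0366 and 0.0153). Ipo7, which imports ribosomal proteins and linker histones, averaged 2230.1 ± 832 units early and 4033 ± 399.9 units late and did not pass (limma adjusted p = 0.0712, and 0.0211 without early replicate 2). Tnpo3, the importer of SR splicing factors, gave -0.59 (1458 ± 377 against 2153 ± 8.33 units, limma adjusted p = 0.104) on its brightest probe set, which passed without early replicate 1 (adjusted p = 0.0281). Another Tnpo3 probe set passed with -1.20 (adjusted p = 0.0444). The transportins Tnpo1 and Tnpo2, close relatives that import hnRNP proteins, had values on opposite sides of 0 on their brightest probe sets. These were 2203 ± 409 against 2924 ± 194 units for Tnpo1 and 517 ± 87.3 against 339 ± 46.1 units for Tnpo2, early against late (limma adjusted p = 0.181 and 0.088). The other tested Tnpo1 probe set lay on the side of Tnpo2, at 0.18 (562 ± 356 against 459 ± 155 units, limma adjusted p = 0.821). Tnpo2 passed without early replicate 2, brighter in the early group (adjusted p = 0.0449). Ipo4, an importer of histones, averaged 3246 ± 199 units early and 2557 ± 166 units late with every early array above every late one, and did not pass (limma adjusted p = 0.181).

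Of 7 tested exportins and receptors that move cargo both ways, 2 were higher in the late group (median -0.42). Xpo5, the exporter of microRNA precursors, stood at 414, 488 and 603 units in the early arrays and at 935, 849 and 795 units in the late arrays. The groups did not overlap, and the difference was -0.79 ± 0.21 on the log2 scale or 1.73-fold (limma adjusted p = 0.0366). Dropping arrays ended the Xpo5 call, with an adjusted p of 0.12, 0.106 and 0.0958 without late replicates 1, 2 and 3 and 0.068 and 0.0621 without early replicates 1 and 2. The other tested Xpo5 probe set, which did not pass, gave -0.66 (215 ± 96.5 against 322 ± 56.8 units, limma adjusted p = 0.213). Cse1l, which returns importin alpha to the cytoplasm, stood at 4219, 5246 and 4242 units in the early arrays and at 8501, 6497 and 7477 units in the late arrays. Late replicate 1 was the brightest and the groups were apart by -0.71 ± 0.20 on the log2 scale or 1.64-fold, close to the threshold (limma adjusted p = 0.0435). The Cse1l call ended at an adjusted p of 0.141, 0.0787 and 0.134 without late replicates 1, 2 and 3 and 0.0847 and 0.0849 without early replicates 1 and 3. Xpo1, the main exporter of proteins with leucine-rich signals, depended on the probe set. Its brightest probe set gave -0.40 (4793 ± 287 against 6337 ± 165 units, limma adjusted p = 0.117), another passed with -1.42 (1612 ± 51.4 against 4319 ± 95.2 units, limma adjusted p = 0.00264), and the dimmest, with overlapping groups, gave 0.72 (353 ± 242 against 168 ± 32.2 units, limma adjusted p = 0.471). Xpo6, the exporter of actin, averaged 999 ± 196 against 1343 ± 195 units, Xpo4 295 ± 158 against 371 ± 131 units, Xpo7 8157 ± 434 against 8719 ± 367 units and Ipo13, which moves cargo both ways, 585 ± 46.9 against 669.6 ± 156 units, early against late. None of these passed (limma adjusted p = 0.203, 0.535, 0.695 and 0.599).

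Probe sets of the same gene mostly shared the direction but not the size. Of 93 tested member probe sets, 32 passed, all with a higher late signal and 1 of them, of Seh1l, tested only through the late group, while 26% of all tested probe sets passed in either direction. In 28 genes with at least 2 tested probe sets, all lay below 0 in 20, all above 0 in 2 (Ipo4 and Nup54), and 6 held both signs (Rae1, Xpo1, Xpo7, Ipo8, Tnpo1 and Kpna1). Opposite calls within a gene did not occur. Of the 17 called genes, 8 had a further tested probe set, and in 3 of these (Nup98, Ipo5 and Ipo9) a further probe set also passed. For 8 genes a dimmer probe set passed while the brightest did not: Seh1l, Nup85, Nup155, Nup62, Kpna3, Kpnb1, Tnpo3 and Xpo1. Counting any tested probe set, 25 of 46 members had a higher late signal, beside 17.5% of all genes with a tested probe set. The widest span within a gene was that of Xpo1, from -1.42 to 0.72.

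**Figure D5:**
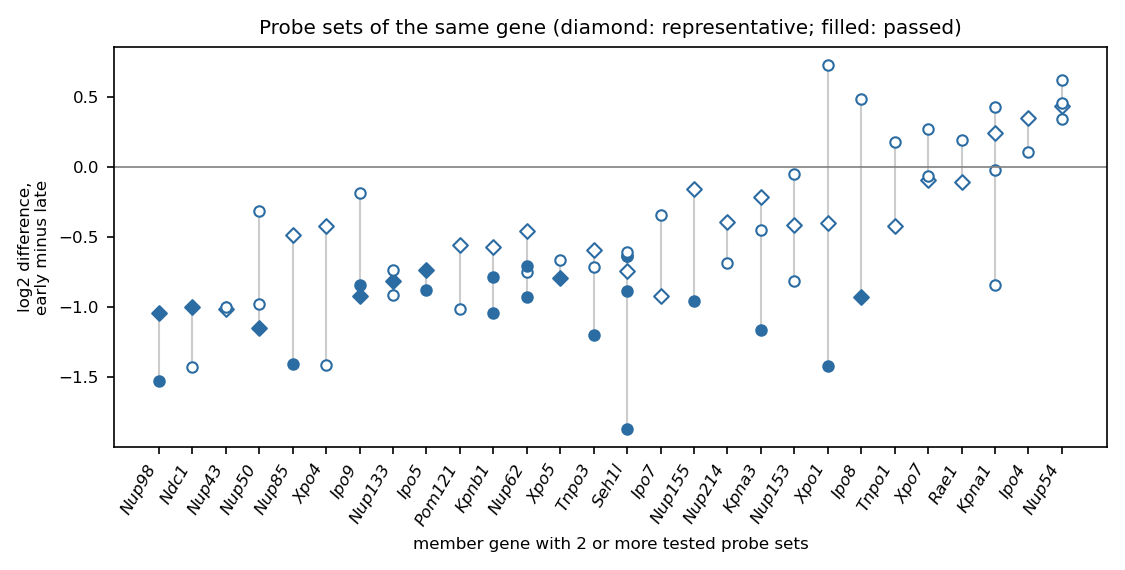
Log2 difference, early minus late (y axis), of each tested probe set of the 28 members with at least 2 tested probe sets (x axis). Diamonds are the representatives, circles the other probe sets, filled symbols passed the test, and grey lines join the probe sets of a gene. No filled symbol lies above 0, and the span is widest for Xpo1.

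Other genes of nuclear transport were described beside the members by their counts. In the Ran cycle 7 genes were tested, of which 3 passed toward the late group and 0 toward the early group (limma; unadjusted p under 0.05 for 5 and 0), with a median of -1.43. Ranbp1, which helps release Ran from export complexes, stood at 1557 ± 205 against 4398 ± 275 units, limma adjusted p = 0.00329, early against late. Rcc2, a relative of the Ran exchange factor Rcc1, and Rangrf, a Ran release factor, differed by -1.45 and -1.43 (adjusted p = 0.0272 and 0.00421). Ran itself, named here after its values were seen, differed by 0.11 and did not pass (limma adjusted p = 0.742). Rcc1, also named after its values were seen, had the largest difference of the list, -2.92, and did not pass (limma adjusted p = 0.119). It was low on early replicate 2 (7.16 units) and passed without that array. The Rcc2 call was lost without early replicate 2 or 3 and without any 1 late array. Of 17 tested RNA export genes, 5 passed toward the late group and 0 toward the early group (limma; unadjusted p under 0.05 for 7 and 0). Among them was Xpot, which exports tRNA and not mRNA, and without it 4 of 16 mRNA export genes passed. The called genes with the largest differences were Alyref, an export adaptor (139 ± 48.7 against 290.2 ± 22.2 units, limma adjusted p = 0.0302), Eny2 (-0.89) and Pcid2 (-0.77), both of the TREX-2 complex. No gene of this list passed when a late array was left out, 3 passed without early replicate 2 and 4 without early replicate 3. Of 5 pore genes outside the name rule, among them Ranbp2 of the cytoplasmic filaments (1832 ± 273 against 2791 ± 433 units, limma adjusted p = 0.0811) and Ahctf1, which seeds pores on chromatin (1019 ± 436 against 1279 ± 52.1 units, limma adjusted p = 0.376), 0 passed in limma and 1 had an unadjusted p under 0.05, while 1 passed without early replicate 1.

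Genes of the nuclear lamina and envelope held calls in both directions. In all, 17 were tested, 5 passed toward the late group and 2 toward the early group, with a median of -0.60. Both early calls, Lmna and Syne1, and the late call Nemp1 lay above the array median in 1 group alone, so they were tested only through the group where they are high. Without these genes 4 of 14 passed toward the late and 0 toward the early group. Syne1, a nesprin that couples the nucleus to the cytoskeleton, stood at 386 ± 76.1 against 43.9 ± 16.4 units, limma adjusted p = 0.00234, early against late. Lmna, the gene of lamins A and C, stood at 396 ± 98.7 against 49.4 ± 15.3 units, limma adjusted p = 0.00244. Neither was tested when an early array was left out. Toward the late group the largest difference was that of Lbr, the lamin B receptor (1402 ± 206 against 5021 ± 247 units, limma adjusted p = 0.00222). Without early replicate 2, or without any 1 late array, 3 late calls were made (Lbr, Tmpo and Tor1aip1). Of 6 tested genes of the SUMO pathway, 0 passed in limma, with 1 at an unadjusted p under 0.05 in the early direction. The largest differences were those of Senp2, a SUMO protease found at the pore (0.75), and Sae1 of the SUMO-activating enzyme (-0.47).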

How the data were processed

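Per the labels, total RNA of frozen sorted cell pellets was biotin-labelled and hybridised to Affymetrix mouse expression arrays. The deposited values are intensities, MAS5 signals on a linear scale, per the submitters' processing notes, and the MAS5 version is not given in the sources used here. Each array's mean without its lowest and highest 2% is 500, so the values carry no measure of RNA amount per cell. MAS5 subtracts mismatch signals, so dim values are noisy on the log scale. Gene names came from the platform annotation (34958 probe sets with 1 symbol, 932 with several, 9211 with none).

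Log2 signals were compared, early minus late, with limma 3.58.1 (lmFit, eBayes, two-sided; R 4.3.3) over all 23471 probe sets that were above their array's median in at least 3 of 6 arrays and were none of the 64 controls. Benjamini-Hochberg adjustment ran over all of them, with a threshold of 0.05. Errors are the SD over 3 arrays or limma's SE. Member roles, the lists beside them and the tests were chosen with earlier results of these data known. In each role up to 4 called members were given array by array; other members appear as means, and genes of the lists as up to 3 called or 2 uncalled. The scripts were tested on simulated data.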

Additional observations from a re-analysis of the deposited data

How the results depend on the processing

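Calls past the threshold numbered 17 of 46 member genes, 32 of 93 member probe sets and 6104 of 23471 probe sets in all. Same-numbered arrays did not deviate together (correlations -0.0291, -0.0747 and -0.00558), so the numbers gave no pairing. With the replicate number as a block the calls were 5 of 46 member genes, 9 of 93 member probe sets and 3593 of 23471 probe sets in all. Without a filter they were 3 of 48, 5 of 125 and 2719 of 45037. At an adjusted p of 0.01 they were 3 of 46, 4 of 93 and 2435 of 23471. Without early replicate 3 and late replicate 3 together they were 2 of 46, 3 of 86 and 1372 of 20906. The share of all genes called higher in the late group was 7.63%, 3.22%, 5% and 3.59%, in that order. In each of these settings a smaller share of member probe sets than of all probe sets passed, counting either direction. With an intensity trend and robust eBayes, 27 of 46 members passed toward the late group and 1 toward the early group (Kpna6). Over all 11064 genes these counts were 1913 and 2031. Members higher in the early group numbered 1 of 46 with signals floored at the array median (Kpna6), beside 1966 of 11064 genes. With a filter at the 70th percentile they numbered 2 of 44 (Kpna6 and Tnpo2), beside 1683 of 8126 genes. Leaving out 1 array gave 5 to 18 members passing toward the late group and 0 to 2 toward the early group, 8 to 34 member probe sets and 2976 to 5496 of all probe sets. Over all genes tested, those higher in the late group went from 1544 to 844 with the block and 585 without a filter. Quantile normalization, centring on the array median, an offset of 5.97 units before log2, the floor, the filter at the 70th percentile, a filter on the mean, array weights and leaving out cross-hybridising probe set types kept the late members' count within 1.5 times. The share of all genes called higher in the late group ran from 13.6% without cross-hybridising types to 20.8% with the filter at the 70th percentile. Centring moved the members' median from -0.56 to -0.62 and that of all genes from -0.03 to -0.08. Without cross-hybridising types, here all of the _x_at, _s_at and _a_at kinds, 15 of 40 tested members passed toward the late group. Nup107 and Aaas, with 1 probe set each and of such a kind, dropped out. Ipo9 was then read from its brightest remaining probe set, which did not pass (difference -0.189, limma adjusted p = 0.523). A dimmer remaining Ipo9 probe set passed with -0.84 (limma adjusted p = 0.0377). The Cse1l call was lost with centring (limma adjusted p = 0.068) and with array weights (0.0503). No called member changed sign in these settings. Dim members such as Nup188, Xpo4 and Aaas lie closest to the array median. The cause of these changes was not tested.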
